A study of Mus musculus with 59 samples.

Results

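Measurements of 10 genes of the p53 pathway were taken from the RNA-seq of 14 mouse epiblasts, to ask whether the higher level of *Cdkn1a* that accompanies loss of *Ehmt2* is shared by other genes that p53 is known to activate. The 10 genes were chosen by symbol, out of 22134 genes with a listed transcript: *Trp53*, *Mdm2*, *Cdkn1a*, *Ccng1*, *Phlda3*, *Sesn2*, *Trp53inp1*, *Zmat3*, *Perp* and *Gtse1*. Each gene was represented by its transcript with the highest mean raw count, and all 10 passed the filter on low counts in both crosses. The epiblast is the part of the early embryo that gives rise to the body, and each library came from 1 epiblast dissected at E6.25, shortly after implantation, from an untreated embryo of mixed background. Of the *Ehmt2* cross there were 4 *Ehmt2*-/- epiblasts, which lack the H3K9 methyltransferase G9a, and 4 controls, given as G9a+/+ in the labels and as *Ehmt2*+/+ or *Ehmt2*+/- in the study's source data. Of the *Ezh2* cross there were 3 *Ezh2*-/- epiblasts, which lack the H3K27 methyltransferase EZH2, and 3 controls, given as Ezh+/+ in the labels and as *Ezh2*+/+ or *Ezh2*+/- in that source data. The *Ehmt2* line derived from a conditional allele and was crossed with a Pou5f1 reporter transgene, *ΔPE-Pou5f1-EGFP*, and no Cre or driver that would confine either deletion to the epiblast is given. Epiblasts came from 4 litters of the *Ehmt2* cross and 3 of the *Ezh2* cross, so p-values below measure the spread between these single epiblasts.

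p53, the product of *Trp53*, is a transcription factor that accumulates after DNA damage and other stress, mainly because its protein is broken down less, and then raises transcription of genes that stop division, kill the cell or aid repair. *Mdm2* codes for the ubiquitin ligase that marks p53 for breakdown and is itself a p53 target, which closes a feedback loop. *Cdkn1a* codes for p21, the inhibitor of cyclin-dependent kinases through which p53 halts the cell cycle, and the rapidly dividing cells of the early postimplantation epiblast are known to enter apoptosis readily after DNA damage.

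p53 binds DNA as a tetramer at an element of 20 bases made of 2 half-sites, and such elements were searched within 3000 bases on either side of each chosen transcript's start in GRCm38, because they are the sequence through which a p53 target is known to be read. A match had both half-sites side by side with no bases between them, a core of CNNG in each half-site with A or T at each N, and at most 2 mismatches to the p53 consensus outside the cores. The consensus reads the same on both strands. The windows of 5 of the 10 genes held a match, printed 5′ to 3′ on the strand of the gene with the cores in capitals.
*Cdkn1a*: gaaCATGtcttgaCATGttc
*Ccng1*: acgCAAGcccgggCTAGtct
*Gtse1*: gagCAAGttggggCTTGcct
*Zmat3*: aaaCAAGcccaggCATGtct
*Perp*: attCTAGcccaggCTTGccc
The *Cdkn1a* element lay 2831 bases upstream of the start, at chr17:29090928-29090947 on the plus strand, with 1 mismatch. The *Ccng1* element lay in an intron 365 bases downstream of the start, at chr11:40754936-40754955 on the minus strand, and the *Gtse1* element in an intron 209 bases downstream, at chr15:85859945-85859964 on the plus strand. Both had 1 mismatch. The *Zmat3* element had 0 mismatches and lay in an intron 1337 bases downstream, at chr3:32364331-32364350 on the minus strand, and the *Perp* element had 2 mismatches and lay 1976 bases upstream, at chr10:18843034-18843053 on the plus strand. Among 13741 genes with a tested transcript, 0.706% held a match with at most 1 mismatch (4 of the 10 genes) and 3.69% one with at most 2. The 10 genes were picked by name as genes of the p53 pathway, so these shares are a description and not a test. A match is a stretch of letters and not a measured binding site. A window without a match under this rule, as for *Mdm2*, does not show that a gene lacks an element.

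Counts summed over all transcripts lay between 30161171 and 68464895 per epiblast. The libraries of control 4 and knockout 4 of the *Ehmt2* cross stood apart: they were the deepest and listed the fewest transcripts. A column heading of the study's source data sets knockout 4 against control 4 alone, whereas its methods describe each knockout as compared with all controls. The model had a term for this comparison set and values of replicate 4 are given beside those of replicates 1 to 3. Of the targeted genes, *Ehmt2* was lower in each *Ehmt2*-/- epiblast (3.22 to 9.46 CPM, the count as a share of the TMM-scaled library) than in each control (10.3 to 32.8 CPM), and *Ezh2* was lower in each *Ezh2*-/- epiblast (11.8 to 16.6 CPM) than in each control (53.4 to 112 CPM). Markers of the epiblast were abundant in all 14 libraries. In the *Ehmt2* cross the summed level of the 8 markers was lower in each knockout (1751 to 2362 CPM) than in each control (2660 to 3029 CPM). *Dnmt3b* gave most of this sum, with 966 to 1393 CPM in knockouts and 1566 to 2031 CPM in controls. By fitted log2 fold change 6 of the markers were lower and 2 higher. The mean log2 level of the markers overlapped between genotypes. Knockout 4 (7.19) lay above controls 1 (7.15) and 3 (7.14), and knockouts 1 to 3 (6.72 to 7.01) lay below every control. In the *Ezh2* cross the summed level was 2187 to 2840 CPM in knockouts and 2685 to 2890 CPM in controls, which overlapped. In whole epiblasts, fewer cells of a type and less RNA per cell cannot be told apart.

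In *Ehmt2*-/- epiblasts, *Cdkn1a*, *Ccng1* and *Mdm2* were higher than in controls, whereas *Trp53* itself did not pass the test. *Cdkn1a* rose 6.28-fold, *Ccng1* 3.31-fold and *Mdm2* 1.83-fold. Of the other targets, *Trp53inp1*, *Phlda3*, *Sesn2* and *Perp* had fitted folds between 2.31 and 2.94 but did not pass the threshold after adjustment over all 49872 transcripts, and *Gtse1* and *Zmat3* had the smallest folds.

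**Figure D1:**
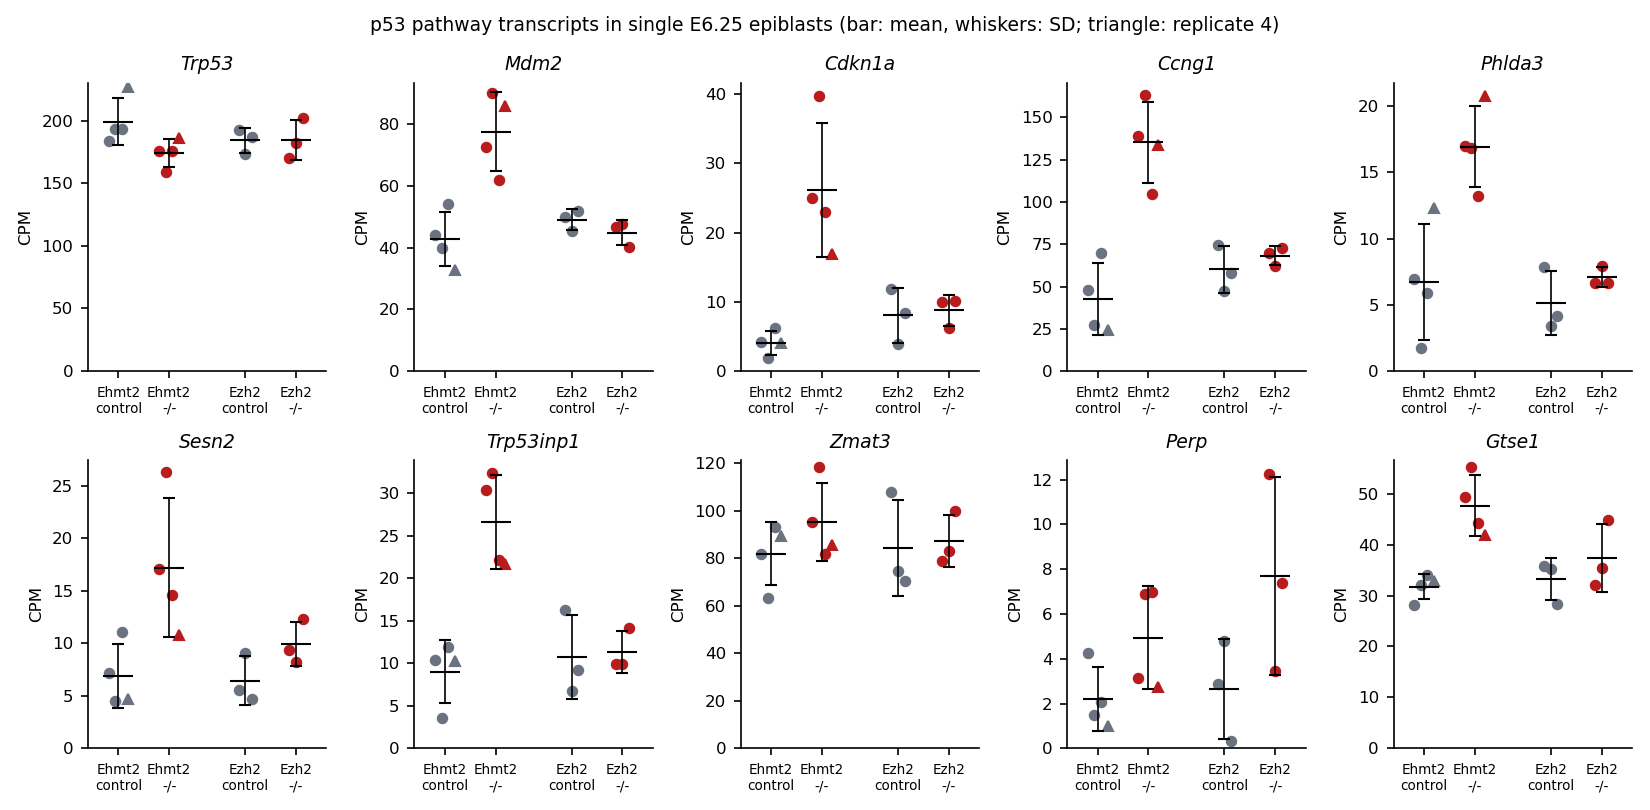
Level of the chosen transcript of each of the 10 genes (CPM, linear axes from 0) in every epiblast, with controls in grey, knockouts in red, replicate 4 as a triangle, the mean as a bar and the SD as whiskers; libraries were scaled within each cross. The 4 *Ehmt2*-/- epiblasts sit above all 4 of their controls for *Mdm2*, *Cdkn1a*, *Ccng1*, *Phlda3*, *Trp53inp1* and *Gtse1*, and the genotypes of the *Ezh2* cross overlap for all 10 genes.

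*Cdkn1a* (ENSMUST00000023829, chromosome 17 from 29093769 to 29100722, plus strand) had 4.19, 1.88, 6.17 and 4.04 CPM across its controls 1 to 4. In *Ehmt2*-/- epiblasts 1 to 4 it had 25.0, 39.7, 23.0 and 16.9 CPM. Each knockout was above every control, and the lowest knockout had 895 counts against 235 in the highest control. The log2 fold change was 2.65 (SE 0.34, n = 4 and 4, edgeR adjusted p = 0.0044). The difference of the mean log2(CPM + 0.5) was 2.78 within replicates 1 to 3 and 1.94 in replicate 4. Its call was kept when any 1 of the 8 epiblasts was left out (adjusted p between 0.00458 and 0.0318 with edgeR). All 3 listed transcripts of *Cdkn1a* were called, with log2 fold changes of 2.62 to 2.65, but they share reads and are not separate evidence. A transcript annotated on the opposite strand overlaps 93 of the 1913 bases of the chosen one, and counting by strand is not stated.

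*Mdm2* (ENSMUST00000105263, chromosome 10 from 117688875 to 117710758, minus strand) lay at 44.1, 39.9, 54.0 and 32.9 CPM across controls 1 to 4. In *Ehmt2*-/- epiblasts 1 to 4 it had 72.5, 90.0, 61.8 and 85.7 CPM, each above every control. The log2 fold change was 0.87 (SE 0.17, n = 4 and 4, edgeR adjusted p = 0.0412), with 0.69 within replicates 1 to 3 and 1.37 in replicate 4 as differences of mean log2(CPM + 0.5). This call was close to the threshold: it was kept without knockout 3 (edgeR adjusted p = 0.0358) and lost without any other epiblast (adjusted p between 0.0604 and 0.144), and it was also lost without both epiblasts numbered 4 (adjusted p = 0.0663) or without the term for the comparison set (adjusted p = 0.196). Of the 9 listed *Mdm2* transcripts, 3 were called, all of them higher. *Trp53* (ENSMUST00000171247, chromosome 11 from 69580359 to 69591872, plus strand) had 184, 193, 193 and 227 CPM in controls and 176, 159, 175 and 186 CPM in *Ehmt2*-/- epiblasts. The groups overlapped, with 3 of 4 knockouts below every control, and the log2 fold change was -0.19 (SE 0.09, edgeR adjusted p = 0.412). A processed pseudogene of *Trp53* lies on chromosome 17, so reads of a near-identical copy could enter or leave its count.

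*Ccng1* codes for cyclin G1, which brings protein phosphatase 2A to Mdm2 and so acts back on p53. Controls 1 to 4 had 48.0, 27.4, 70.1 and 24.0 CPM, whereas the *Ehmt2*-/- epiblasts had 139, 163, 105 and 134 CPM. Each knockout was above every control. The log2 fold change was 1.73 (SE 0.27, n = 4 and 4, edgeR adjusted p = 0.0156), and the difference of mean log2(CPM + 0.5) was 1.55 within replicates 1 to 3 and 2.45 in replicate 4. The call was lost without control 1 (edgeR adjusted p = 0.0663), without knockout 2 (adjusted p = 0.0632) or without the term for the comparison set (adjusted p = 0.104). *Gtse1*, a microtubule-associated protein of G2 and mitosis that is known to carry p53 out of the nucleus, had 28.2, 32.0, 33.9 and 32.8 CPM in controls and 49.3, 55.2, 44.1 and 41.9 CPM in knockouts. The groups did not overlap, and the log2 fold change was 0.58 (SE 0.13, edgeR adjusted p = 0.0755).

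*Trp53inp1*, which codes for a protein that promotes cell death and autophagy downstream of p53, had 10.3, 3.53, 11.9 and 10.3 CPM in controls and 30.3, 32.4, 22.1 and 21.7 CPM in *Ehmt2*-/- epiblasts. The lowest knockout was above the highest control, and the log2 fold change was 1.56 (SE 0.32, edgeR adjusted p = 0.0509), just outside the threshold. The transcript counted most for this gene (ENSMUST00000132010) is annotated as not coding for protein. A transcript of the gene that codes for protein (ENSMUST00000029865) had a log2 fold change of 1.54 (SE 0.32, edgeR adjusted p = 0.0585). These transcripts can share reads, so the values are not separate evidence. *Phlda3*, which codes for a protein that keeps the survival kinase Akt from the membrane, had 6.98, 1.71, 5.93 and 12.3 CPM in controls and 16.98, 16.8, 13.2 and 20.8 CPM in knockouts. The groups did not overlap, although control 4 lay close to knockout 3, and the log2 fold change was 1.45 (SE 0.36, edgeR adjusted p = 0.111). *Sesn2* codes for a sestrin, which restrains the growth kinase complex mTORC1. It had 7.20, 4.53, 11.0 and 4.69 CPM in controls and 17.1, 26.3, 14.6 and 10.8 CPM in *Ehmt2*-/- epiblasts. Here 3 of 4 knockouts were above every control, and the log2 fold change was 1.32 (SE 0.28, edgeR adjusted p = 0.0596).

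*Perp*, which codes for a membrane protein of desmosomes that also acts in p53-dependent apoptosis, was the lowest of the 10 in count, with 55 to 174 counts in controls and 112 to 273 in *Ehmt2*-/- epiblasts. It had 4.26, 1.50, 2.05 and 0.992 CPM in controls and 3.13, 6.87, 6.97 and 2.76 CPM in knockouts, so that the groups overlapped, and the log2 fold change was 1.21 (SE 0.39, edgeR adjusted p = 0.229). *Zmat3*, an RNA-binding zinc finger protein, had 63.4 to 93.2 CPM in controls and 81.8 to 118 CPM in knockouts. The groups overlapped and the log2 fold change was 0.22 (SE 0.15, edgeR adjusted p = 0.622). *Zmat3*, with the closest match to the p53 consensus among the 10 windows, had the smallest fitted increase of the 9 genes with a log2 fold change above 0.

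Counted together, 3 of the 10 genes were called higher and 0 lower in the *Ehmt2* cross, where 0.902% of 13749 genes were called higher and 0.204% lower, each by its chosen transcript. At an unadjusted p under 0.05, 8 of the 10 were higher and 1, *Trp53*, lower, where 8.58% of genes were higher and 6.86% lower. Every knockout was above every control for 6 of the 10 genes, and for 3.59% of all genes. The median log2 fold change of the 10 was 1.26 and that of all genes tested was 0.01. *Cdkn1a*, whose rise prompted the question, is itself part of these counts of higher genes and of the median. The other genes called were *Ccng1* and *Mdm2*. The number called rests on single epiblasts: without control 1 or without knockout 2 it was 1 (*Cdkn1a*), and over the 8 ways of leaving out 1 epiblast it ran from 1 to 4. Without both epiblasts numbered 4 it was 4, with *Trp53inp1* and *Gtse1* called and *Mdm2* not.

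**Figure D2:**
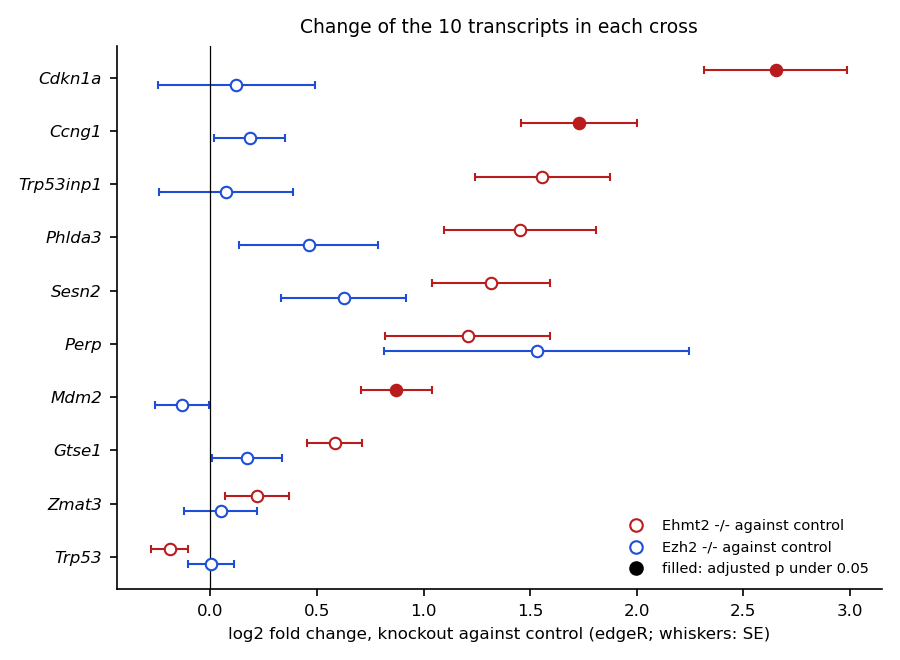
Log2 fold change, knockout against control, of the 10 genes in the *Ehmt2* cross (red, n = 4 and 4) and the *Ezh2* cross (blue, n = 3 and 3), with the SE as whiskers and filled points for an edgeR adjusted p under 0.05. *Cdkn1a* (2.65), *Ccng1* (1.73) and *Mdm2* (0.87) are filled in red, and no blue point is filled.

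Markers of another tissue moved with the genotype. The extraembryonic ectoderm is the neighbouring trophoblast tissue. Of its 12 markers, 11 were tested in the *Ehmt2* cross and 3 (*Elf5*, *Tfap2c* and *Sox21*) were called higher in knockouts, where 0.902% of all genes were. At an unadjusted p under 0.05, 10 of the 11 were higher and 0 lower, where 8.58% of all genes were higher and 6.86% lower. The median log2 fold change of the 11 was 2.51. The mean log2(CPM + 0.5) of the markers was 0.88, 1.12, 1.05 and 0.37 in controls 1 to 4 and 4.16, 2.58, 2.87 and 0.26 in knockouts 1 to 4, so knockouts 1 to 3 were above every control and knockout 4 was below. Their summed level was 40.6 to 141 CPM in controls and 39.97 to 381 CPM in knockouts. *Eomes* alone gave 119 of the 141 CPM of control 2. In knockout 4, 7 of the 12 markers had no count, among them *Elf5*, *Cdx2*, *Tfap2c*, *Hand1* and *Sox21*, and in that epiblast *Cdkn1a* was at 16.9 CPM, *Ccng1* at 134 CPM and *Mdm2* at 85.7 CPM, above every control. With the mean log2 level of the markers as a covariate, *Cdkn1a* (log2 fold change 2.59, edgeR adjusted p = 0.0459), *Ccng1* (2.16, adjusted p = 0.0370) and *Mdm2* (1.21, adjusted p = 0.0422) were called. Across replicates 1 to 3 the covariate separated the genotypes, so this fit can hardly tell it from the genotype there. The part of this tissue in these values was not tested. Of the other neighbouring cell types, no marker of visceral endoderm, primitive streak and mesoderm or blood was called in this cross, where 10 of 12, 7 of 8 and 1 of 8 markers could be tested by edgeR, and at an unadjusted p under 0.05 the numbers were 0, 1 and 0. None of the 8 epiblast markers was called either (0 by edgeR, with 0 higher and 4 lower at an unadjusted p under 0.05).

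**Figure D3:**
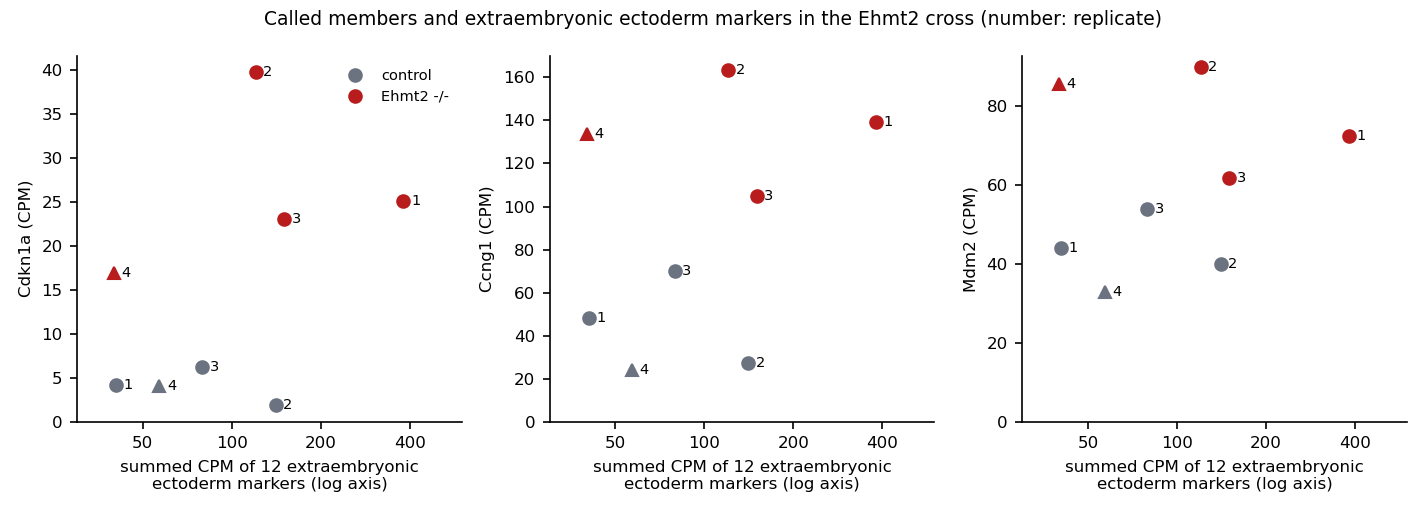
Level of *Cdkn1a*, *Ccng1* and *Mdm2* (CPM, vertical axes from 0) against the summed CPM of the 12 extraembryonic ectoderm markers (log axis) in the 8 epiblasts of the *Ehmt2* cross, numbered by replicate, with controls in grey and knockouts in red. Knockout 4, with the lowest summed marker level (39.97 CPM), sits above all controls in the 3 panels.

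In the *Ezh2* cross none of the 10 genes was called by edgeR (0 of 10, with 0 at an unadjusted p under 0.05 and 0 by DESeq2, which called 0.649% of transcripts), where 0% of 14010 genes were called higher and 0.00714% lower, and 5.5% were higher and 3.39% lower at an unadjusted p under 0.05. Knockouts and controls overlapped for each of the 10 genes, while every knockout was above every control for 7.71% of all genes and below for 6.47%. *Cdkn1a* had 11.8, 3.93 and 8.40 CPM in controls and 9.98, 6.21 and 10.1 CPM in *Ezh2*-/- epiblasts, and its log2 fold change was 0.12 (SE 0.37, n = 3 and 3, edgeR adjusted p = 0.968). The groups overlapped fully, with each knockout between the lowest and the highest control. *Mdm2* had 50.03, 45.3 and 51.8 CPM in controls and 46.7, 47.4 and 40.2 CPM in knockouts (log2 fold change -0.13, SE 0.13, edgeR adjusted p = 0.888). *Ccng1* had 74.8, 47.3 and 58.1 CPM in controls and 70.0, 62.1 and 72.7 CPM in knockouts (log2 fold change 0.18, SE 0.17, edgeR adjusted p = 0.879). Both genes overlapped between genotypes. *Sesn2* (log2 fold change 0.63, SE 0.29) and *Perp* (1.53, SE 0.72) had the largest fitted differences, both with an edgeR adjusted p of 0.725. *Perp* was uneven between controls, at 2.87, 4.78 and 0.322 CPM, against 12.3, 3.44 and 7.38 CPM in knockouts. The median log2 fold change of the 10 genes was 0.15, beside 0.03 for all genes tested. Of the extraembryonic ectoderm markers 9 were tested here, and all 9 had a log2 fold change above 0 (median 0.90). None of them was called by edgeR, and 2 were higher at an unadjusted p under 0.05. The mean log2(CPM + 0.5) of the 12 markers was 0.98, 0.56 and 0.76 in controls and 2.04, 1.42 and 0.80 in knockouts, so knockout 3 lay among the controls. Libraries of both genotypes differed in visceral endoderm, the sheet of cells that covers the epiblast: the summed level of its 12 markers was 1177 CPM in control 2 and 2695 CPM in knockout 1, against 14.1 to 24.4 CPM in the other 4 epiblasts. The number of the 10 genes called stayed 0 without either of them, and over the 6 ways of leaving out 1 epiblast the log2 fold change of *Cdkn1a* ran from -0.21 to 0.50.

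The crosses share no control, and the difference between their effects was tested in a fit of all 14 epiblasts. None of the 10 genes passed an adjusted p of 0.05 over 55248 transcripts with edgeR, which 0.118% of 15213 genes did by their chosen transcripts, while 4 of the 10 and 10.3% of genes had an unadjusted p under 0.05, and DESeq2 called 3 (*Cdkn1a*, *Mdm2* and *Ccng1*) and 0.621% of transcripts. The *Ehmt2* effect minus the *Ezh2* effect was 2.53 on the log2 scale for *Cdkn1a* (SE 0.54, edgeR adjusted p = 0.144), 1.54 for *Ccng1* (SE 0.37, adjusted p = 0.210) and 1.00 for *Mdm2* (SE 0.23, adjusted p = 0.173). It was 1.48 for *Trp53inp1* (SE 0.50, edgeR adjusted p = 0.429) and -0.33 for *Perp* (SE 0.86, adjusted p = 0.950). These adjusted p-values neither place the increases in the *Ehmt2* cross alone nor show that the effects of the 2 knockouts were alike.

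Beyond the 10 genes, 68 others of the pathway were followed in 6 lists, 65 of which could be tested in the *Ehmt2* cross. *Ei24*, a p53-induced gene of apoptosis and autophagy, was the one called higher and none was called lower. Of all 13749 genes, 0.902% were called higher and 0.204% lower. It had 23.1, 23.7, 22.7 and 18.6 CPM in controls and 35.1, 44.3, 30.8 and 52.0 CPM in knockouts (log2 fold change 0.87, SE 0.17, edgeR adjusted p = 0.0471), and its call was lost without any 1 epiblast except knockout 3 (adjusted p between 0.0687 and 0.152), without both epiblasts numbered 4 (adjusted p = 0.0725) and without the term for the comparison set (adjusted p = 0.195). Among the 10 targets that act in arrest and quiescence, 0 were called by edgeR and 3 were higher at an unadjusted p under 0.05, where 8.58% of all genes were higher and 6.86% lower. *Btg2*, an antiproliferative gene, had 1.44 to 4.36 CPM in controls and 5.90 to 13.1 CPM in knockouts (log2 fold change 1.70, SE 0.38, edgeR adjusted p = 0.0832). *Plk2*, singled out after its values were seen, had the largest fitted change of the 6 lists (3.68, SE 0.89, edgeR adjusted p = 0.105). Some of its controls were near the floor: controls 1 to 4 had 1.32, 0.212, 3.28 and 0.0721 CPM, and its lowest count in any epiblast was 4. Knockouts 1 to 4 had 7.89, 18.0, 7.61 and 28.0 CPM, with the highest value in replicate 4. The DNA damage gene *Gadd45a* (-0.30, SE 0.33) and the sestrin *Sesn1* (0.10, SE 0.21) had values near those of controls.

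Of 11 tested targets that act in apoptosis, *Ei24* was called by edgeR, where 0.902% of all genes were called higher. At an unadjusted p under 0.05, 5 of the 11 were higher and 1 lower, where 8.58% of all genes were higher and 6.86% lower. *Eda2r*, a receptor of the tumour necrosis factor family, had 0.275 to 2.62 CPM in controls and 4.62 to 17.1 CPM in knockouts (log2 fold change 2.68, SE 0.58, edgeR adjusted p = 0.0699). It lies on the X chromosome, and the study reports an excess of X-linked genes among those raised in *Ehmt2*-/- epiblasts. The part of this in the *Eda2r* values was not tested. Among the genes best known for p53-dependent death, *Bax* had a log2 fold change of -0.04 (SE 0.15), *Bbc3* of 0.74 (SE 0.35, edgeR adjusted p = 0.440), *Pmaip1* of -0.42 (SE 0.17, adjusted p = 0.359) and the nuclease gene *Aen* of -0.02 (SE 0.17). *Fas* was not tested, with at most 1 count in any epiblast. None of the 12 genes of repair and metabolism was called by edgeR (3 higher at an unadjusted p under 0.05), and *Ddb2*, which recognises ultraviolet lesions, had a log2 fold change of -0.19 (SE 0.27).

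Genes that act on p53 had small fitted differences. Among the 17 regulators tested, 0 were called by edgeR. At an unadjusted p under 0.05, 1 was higher and 0 lower, where 8.58% of all genes were higher and 6.86% lower. Log2 fold changes of the regulators lay between -0.30 and 0.46 with a median of -0.05. *Mdm4*, the partner of Mdm2 that holds p53 inactive, had a log2 fold change of 0.03 (SE 0.11), and the phosphatase gene *Ppm1d* of 0.46 (SE 0.17, edgeR adjusted p = 0.316). Of 12 cell division genes that p21 is known to repress, among them cyclins and mitotic kinases, 0 were called by edgeR (1 higher and 0 lower at an unadjusted p under 0.05), and their log2 fold changes lay between -0.24 and 0.73. Of the relatives of *Cdkn1a* and *Trp53*, 3 were tested and 0 were called by edgeR (1 higher and 1 lower at an unadjusted p under 0.05). *Cdkn1b* (p27) had a log2 fold change of -0.64 (SE 0.24, edgeR adjusted p = 0.304) and *Cdkn1c* (p57) of 1.34 (SE 0.37, adjusted p = 0.152). *Cdkn1c* had 15.5, 8.75 and 10.4 CPM in knockouts 1 to 3 and 2.31 CPM in knockout 4, against 2.52 to 3.94 CPM in controls, and in the *Ezh2* cross it had 7.76 to 10.8 CPM in knockouts against 2.51 to 5.18 CPM in controls (log2 fold change 1.28, SE 0.30, edgeR adjusted p = 0.404). The *Cdkn1c* value of the *Ehmt2* cross was 0.15 with the extraembryonic ectoderm covariate (edgeR adjusted p = 0.862) and 1.80 without both epiblasts numbered 4 (adjusted p = 0.0121, a call), and it was also called without either of them and by DESeq2. Across the 65 genes, 14 were higher and 2 lower at an unadjusted p under 0.05 with edgeR, beside the 8.58% and 6.86% of all genes. DESeq2 called 10 of the 65, all higher, where it called 1.84% of transcripts higher. In the *Ezh2* cross edgeR called 0 of 65 and DESeq2 called 1, where DESeq2 called 0.649% of transcripts. At an unadjusted p under 0.05 with edgeR, 4 were higher and 2 lower there, where 5.5% of all genes were higher and 3.39% lower.

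**Figure D4:**
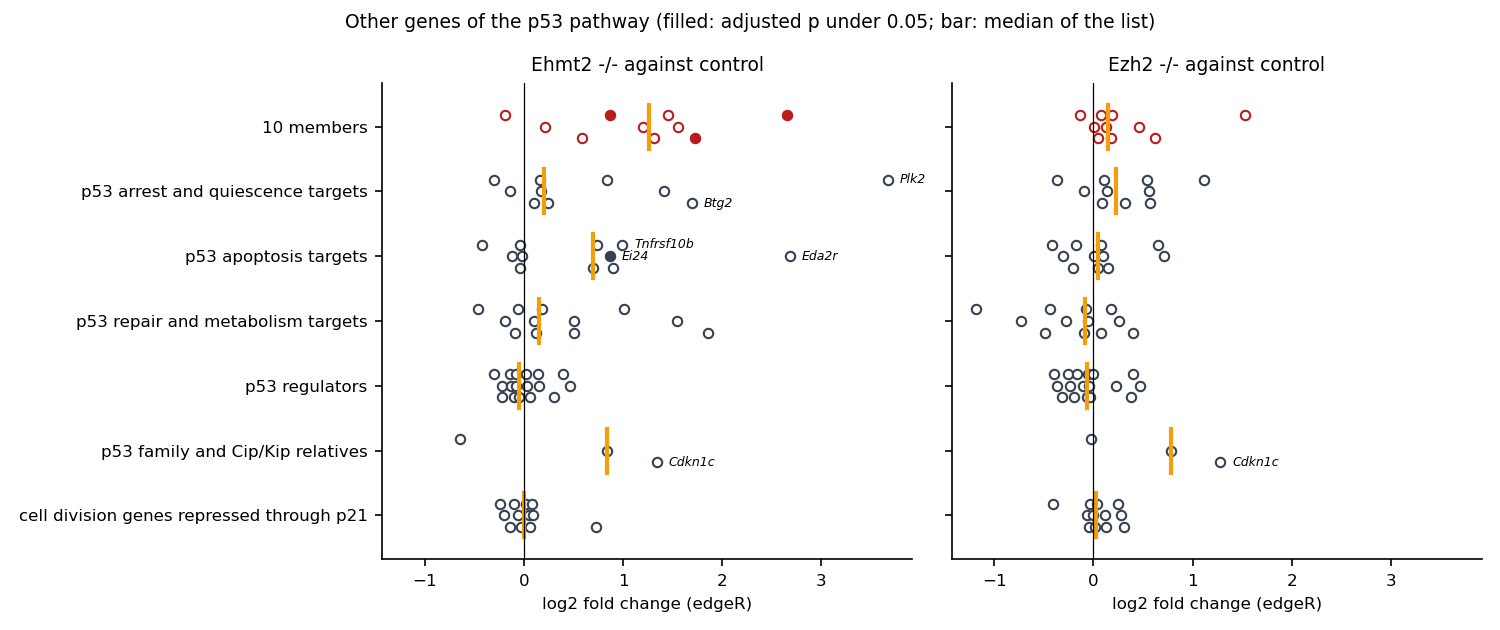
Log2 fold change of each tested gene in the 10-gene group (red) and in 6 other lists of the p53 pathway, in the *Ehmt2* cross (left) and the *Ezh2* cross (right), with filled points for an edgeR adjusted p under 0.05 and a bar at the median of each list. In the *Ehmt2* cross the median of the 10 genes is 1.26, that of the regulators is -0.05 and the cell division genes lie between -0.24 and 0.73.

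In controls the 10 genes differed widely in level. Per kilobase of transcript, with all 14 libraries scaled together, *Trp53* was highest at 103 ± 11.4 CPM per kb (SD, n = 7 controls of both crosses), and its range lay above that of every other gene. *Mdm2* (14.4 ± 2.16), *Ccng1* (14.1 ± 5.37), *Gtse1* (12.2 ± 1.12) and *Zmat3* (10.6 ± 1.94 CPM per kb) followed. *Phlda3* (4.25 ± 2.54), *Cdkn1a* (2.99 ± 1.67), *Sesn2* (1.92 ± 0.740), *Trp53inp1* (1.79 ± 0.722) and *Perp* (1.22 ± 0.837 CPM per kb) were lowest. From *Mdm2* down, the range of each gene overlapped that of the next in the order. In *Ehmt2*-/- epiblasts *Cdkn1a* was at 13.97 ± 5.05 CPM per kb and *Ccng1* at 39.4 ± 6.84 CPM per kb (SD, n = 4).

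The genes whose levels followed *Cdkn1a* most closely over the 14 epiblasts, out of 15212 genes by Pearson correlation of log2(CPM + 0.5), were *Trp53inp1* (r = 0.939), *Abhd5* (0.936), *Ccng1* (0.932), *Eda2r* (0.923) and *Abca16* (0.911). The value is a description: the 4 *Ehmt2*-/- epiblasts stood above the other 10 for *Cdkn1a*, so any gene that separates the same libraries scores high. Of the other 9 genes, 6 were among the 100 most alike (*Trp53inp1*, *Ccng1*, *Mdm2*, *Gtse1*, *Sesn2* and *Phlda3*), *Zmat3* (r = 0.659) and *Perp* (r = 0.401) were further down the order, and *Trp53* had r = -0.423. *Cdkn1a* lies on the same chromosome as *Ehmt2*, 5.80 Mb away. Of 30 tested genes within 1 Mb of *Cdkn1a*, none was called by edgeR. At an unadjusted p under 0.05, 3 were higher and 2 lower, where 8.58% of all genes were higher and 6.86% lower. DESeq2 called 2 of these neighbours, where it called 1557 of 49872 transcripts. The median log2 fold change of the 30 genes was -0.03, with values from -1.38 to 1.01.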

How the data were processed

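RNA-seq of 14 single epiblasts at E6.25 was analysed, 8 of the *Ehmt2* cross and 6 of the *Ezh2* cross. The authors amplified 750 pg of RNA per epiblast with the Ovation RNA-seq System V2, trimmed reads to 40 nt, mapped them with TopHat2 to GRCm38, and deposited raw HTSeq counts for every Ensembl release 74 transcript. A read that fits several isoforms can be counted for each, and amplification from so little RNA adds spread that a count does not show. The submitters' processing notes name the same tools. Replicate 4 of both *Ehmt2* groups also listed unaligned reads (12.6% and 13.3% of the column), which were left out of library sizes and tests.

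A transcript missing from a file was given a count of 0. Of 72515 transcripts, 70021 (96.6%) matched GENCODE vM21, which is on GRCm38 and gave names and positions. Low counts were removed with filterByExpr by genotype, counts were scaled by TMM to CPM, and each cross was fitted with edgeR 4.0.16 (glmQLFit, glmQLFTest; R 4.3.3) on all transcripts. The *Ehmt2* fit had a term for the comparison sets (replicates 1 to 3, replicate 4) that a column heading of the study's source data names. Its methods instead describe each knockout as compared with all controls. Calls were made at an adjusted p-value (Benjamini-Hochberg, over all transcripts) under 0.05, and each SE was taken as the log2 fold change over the square root of F. The difference between crosses was fitted on all 14 epiblasts. Counting error is small beside the spread between epiblasts at the depths given, and no interval was computed for it. The code was tested on simulated data.

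The 10 genes, the other lists and the p53 element rule were chosen with earlier results of these data known. Genes named beyond the 10 were the targeted genes, 14 pathway genes named whatever their values, any list gene called in a cross, and the 5 most correlated with *Cdkn1a*. *Plk2*, *Rpl11*, *Rpl5* and *Siva1* were added after their values were seen, and marker genes were named beside the results they belong to. Same-numbered control and knockout epiblasts are not stated to be littermates, so the main model had no replicate block. Alternatives were DESeq2 1.42.0, RLE scaling, no filter, 1 transcript per gene, other call rules, a replicate block, no set term, a marker covariate, summed transcripts, another pseudocount and each epiblast left out. Reads were not realigned, and the ChIP-seq and bisulfite samples were not used here.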

Additional observations from a re-analysis of the deposited data

Results flagged for a closer look

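A test for a single outlying epiblast in each group of 4 was applied to 62 sets of values. It marked 1 of the 62, where chance alone marks about 1 set in 20, so the number marked is no more than chance gives. *Bax*, the pore-forming death effector, had 64.4 CPM in *Ehmt2*-/- epiblast 4 against 17.8 to 21.01 CPM in the other three. Control 4 had 58.1 CPM against 17.6 to 25.8 CPM in controls 1 to 3, and these libraries of replicate 4 are the ones that stood apart. Other listed genes differed in both of these libraries, in either direction. *Rpl11* had 986 CPM in control 4 and 812 CPM in knockout 4, against 310 to 331 CPM in replicates 1 to 3. *Siva1* had 56.9 and 60.5 CPM against 15.2 to 22.2 CPM, whereas *Rpl5* was lower, at 762 and 550 CPM against 780 to 948 CPM. The part of the comparison set in the *Bax* value was not tested beyond the set term of the model, and none of the 10 genes was marked.

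The targeted genes differed in their response between the crosses. The design fixed this in advance, because each was deleted in its own cross only, so the values serve as a check of the labels. The *Ehmt2* effect minus the *Ezh2* effect was -1.72 on the log2 scale for *Ehmt2* and 2.39 for *Ezh2*, each with an edgeR adjusted p under 0.05 in the fit of all 14 epiblasts.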

How the results depend on the processing

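The call of *Cdkn1a* in the *Ehmt2* cross held under all 16 alternative fits (log2 fold change 2.37 to 2.90, edgeR or DESeq2 adjusted p at most 0.0459). The number of the 10 genes called there, 3, depended on the processing. It was 7 with DESeq2, 6 without the filter, 5 with 1 transcript per gene and 9 at an unadjusted p under 0.05, and it was 1 (*Cdkn1a*) without the comparison-set term. The edgeR counts without the filter or with 1 transcript per gene adjust over other sets of features; otherwise the cause was not tested. Leaving out each epiblast in turn gave 1 to 4. The replicate numbers do not pair the epiblasts by litter in any stated way, and same-numbered pairs correlated between 0.0623 and 0.403 in the *Ehmt2* cross and between -0.179 and 0.221 in the *Ezh2* cross. Not every epiblast correlated best with its own number, which is a hint from the data and not from the design. With the replicate block 1 of the 10 genes (*Cdkn1a*) and 0 of the 65 others were called in the *Ehmt2* cross (edgeR adjusted p = 0.0595 for *Ccng1*, 0.1395 for *Mdm2* and 0.135 for *Ei24*), and it gave log2 fold changes of -0.0010 for *Trp53* in the *Ezh2* cross and 0.0067 for *Aen*.

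For the difference between crosses, DESeq2 called 3, no filter 1 (*Cdkn1a*) and an unadjusted p under 0.05 gave 4. Of the 65 other pathway genes, the *Ehmt2* cross gave 10 with DESeq2, 5 without the filter, 0 without the set term, 2 without both epiblasts numbered 4, 3 with the marker covariate, 0 with a log2 fold change beyond 1.4 added, 16 at an unadjusted p under 0.05 and 0 to 2 with each epiblast left out. The *Ezh2* cross gave 1 with DESeq2 and 6 at an unadjusted p under 0.05, the difference gave 13 at an unadjusted p under 0.05, and the neighbours of *Cdkn1a* gave 2 with DESeq2 and 5 at an unadjusted p under 0.05. The fall of *Ehmt2* lost its call without the set term (-1.66). That of *Ezh2* lost it with 1 transcript per gene (-2.55), and in turn without each of knockouts 1 to 3 of that cross, with values of -2.74 to -2.16 over the 6 epiblasts left out.

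Over all transcripts, 334 were called in the *Ehmt2* cross, against 1557 with DESeq2, 641 without the filter, 185 with 1 transcript per gene, 117 with the block, 52 without the set term, 573 without both epiblasts numbered 4, 197 with the covariate and 103 to 591 with each epiblast left out. The *Ezh2* cross had 6, against 330 with DESeq2, 30 without the filter, 0 with 1 transcript per gene, 10 with the block and 0 to 28 with each epiblast left out. The difference had 32, against 343 with DESeq2, 69 without the filter, 20 with 1 transcript per gene, 13 with the block, 9 without the set term and 11 to 27 with each epiblast left out.

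Signs turned for log2 values near 0 that did not pass the test. In the *Ezh2* cross *Trp53* was -0.0058 without the filter and -0.0187 with 1 transcript per gene, and *Bax* was -0.0028, -0.0157 and, with the replicate block, -0.0015. Leaving out each epiblast of that cross gave -0.0716 to 0.0555 for *Trp53*, -0.21 to 0.50 for *Cdkn1a*, -0.17 to 0.50 for *Trp53inp1*, -0.0659 to 0.26 for *Zmat3*, -0.0445 to 0.28 for *Btg2*, -0.0587 to 0.10 for *Bax*, -0.24 to 0.36 for *Bbc3*, -0.0995 to 0.26 for *Aen*, -0.0041 to 0.20 for *Ei24*, -0.12 to 0.0385 for *Mdm4* and -0.12 to 0.0567 for *Cdkn1b*. The difference between crosses ran from -0.0461 to 0.28 for *Zmat3* and from -1.06 to 0.20 for *Perp*, which was 0.41 with the covariate. In the *Ehmt2* cross the covariate gave 0.0748 for *Gadd45a*, -0.093 for *Sesn1*, 0.11 for *Bax* and -0.0465 for *Mdm4*, and *Bax* was 0.0239 without the set term. Leaving out each epiblast there gave -0.0060 to 0.26 for *Sesn1*, -0.11 to 0.0955 for *Bax*, -0.13 to 0.17 for *Aen* and -0.0086 to 0.0626 for *Mdm4*.

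Limits are the small number of epiblasts, amplification from little RNA, counts of isoforms that share reads, and RNA levels only: p53 protein was not measured.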
